A study of Rattus norvegicus with 8 samples.

Results

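The genes described here encode 8 Toll-like receptors of the rat (Tlr2 to Tlr9) and the accessory proteins CD14 and MD-2, the latter encoded by Ly96. They were taken by gene name from the non-control spots of the arrays, which gave 10 genes of 36174 gene names and 15 probes of 45598. RNA came from NR8383 cells, a line of alveolar macrophages started from the lung lavage of a normal rat, which grows partly attached and partly in suspension. Cells at passage 20 (P20) were set against cells of the same line at passage 200 (P200), with 4 replicates each. No agent was added in either group, and no ligand of these receptors is named in the labels, so the values are levels in unstimulated culture. Both groups are 1 cell line, and the labels do not say whether the replicates were separate cultures, so the p-values measure the spread between these samples only, part of which may be technical.

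Toll-like receptors are membrane proteins with a leucine-rich ectodomain that binds microbial molecules and a cytoplasmic TIR domain that recruits adaptors. TLR4 with MD-2 and CD14, TLR2 with TLR1 or TLR6, and TLR5 act mainly at the cell surface on lipopolysaccharide, lipopeptides and flagellin, while TLR3, TLR7, TLR8 and TLR9 sense nucleic acids in endosomes. In alveolar macrophages they are among the first receptors to meet inhaled bacteria, viruses and particles, and they signal through MyD88 or TRIF to NF-kappaB and interferon regulatory factors.

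The array reads each transcript through probes of 60 bases, and the letters of the probes decide what a value can stand for. The probes of Tlr2, Tlr6 and Tlr1 are shown because these receptors are close relatives. The capitals mark the longest run that the 3 probes share, which is 8 bases. By pairs, the longest shared run was 14 bases for Tlr1 and Tlr2, 10 for Tlr2 and Tlr6 and 8 for Tlr1 and Tlr6, and cross-hybridisation between them was not tested. The Tlr1 probe, on chromosome 14 at 46124542 to 46124601 of assembly rn4, was not well above background on any of the 8 arrays, while those of Tlr2 and Tlr6 were on all 8.
Tlr2: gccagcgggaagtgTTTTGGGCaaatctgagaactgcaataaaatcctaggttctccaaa
Tlr6: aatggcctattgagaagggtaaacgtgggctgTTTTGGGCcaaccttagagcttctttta
Tlr1: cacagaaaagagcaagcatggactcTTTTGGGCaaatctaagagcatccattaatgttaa

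Ly96 is read by a pair of probes that start at bases 427 and 428 of its transcript, and they are shown because they are nearly 1 probe printed again. They overlap by 59 bases with 1 difference, marked by the capital, which is A11G counted from 1 at the 5′ end of the probe that starts at base 427.
Ly96 at 427: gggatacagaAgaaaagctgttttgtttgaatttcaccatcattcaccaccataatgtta
Ly96 at 428: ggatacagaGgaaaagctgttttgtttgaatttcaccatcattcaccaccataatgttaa

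The Tlr7 probe with the higher signal, which carries the call for that gene, is shown for its place on the X chromosome at 47356167 to 47356226 of rn4. Tlr7 and Tlr8 are neighbours on that chromosome in the RefSeq annotation of assembly GRCr8, with 0 protein-coding genes between them.
Tlr7: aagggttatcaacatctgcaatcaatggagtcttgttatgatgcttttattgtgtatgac

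The 8 arrays shared 1 slide and 1 scan. The share of spots that the scanner software marked as well above background was 51.0% to 54.5%, and 0 spots were saturated. Levels are given as log2 of the processed signal less the 75th percentile of the array, so 0 is the signal that 75% of probes lie below. Changes, falls and rises are differences on this log2 scale unless given as folds, and levels of different probes are not compared. Of 10 macrophage markers on the array, 7 were well above background on all 8 arrays and 2, Adgre1 and Cd163, on none. Their summed level, relative to the 75th percentile on a linear scale, was 840 to 1032 at P20 and 838 to 886 at P200. Lyz2 makes up most of this sum (mean log2 levels of 9.47 at P20 and 9.26 at P200), so the sum says little about the dimmer markers. Of the lung epithelial markers 4 of 5 (Sftpb, Sftpa1, Epcam and Cdh1) were above background on no array, as were Col1a1 and Pdgfra of fibroblasts, Tek of endothelium and Ncr1 of lymphocytes. Col1a2 and Dcn, and Pecam1 and Cdh5, were above it on all 8, with summed levels of 6.16 to 7.20 at P20 and 6.72 to 8.33 at P200 for the fibroblast list and of 4.01 to 4.49 and 4.15 to 4.59 for the endothelial list. In a bulk RNA sample, fewer cells carrying a transcript and less transcript per cell cannot be told apart.

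Setting P200 against P20 asks how these receptors stood in the macrophage line after prolonged culture. Tlr3, Cd14 and Tlr7 were lower at P200, by 2.88-fold, 1.88-fold and 1.60-fold, and Tlr4 was higher by 1.32-fold. Tlr2, Tlr6, Tlr8 and Ly96 did not pass the test. Tlr5 and Tlr9 were too dim to be tested. Of the 8 members tested, all of them well above background on all 8 arrays, 3 were called lower and 1 higher by limma with Benjamini-Hochberg adjustment over 15651 genes, beside 5.53% of all genes called lower and 5.99% called higher. The median log2 change of the 8 was -0.25, with a range from -1.53 to 0.40, beside a median of -0.00031 and a median absolute change of 0.12 over all genes tested. Of the 8 tested members, 4 had P20 and P200 arrays that did not overlap, 1 with P200 above and 3 with P200 below, beside 19.6% of all genes (9.49% above and 10.1% below).

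**Figure D1:**
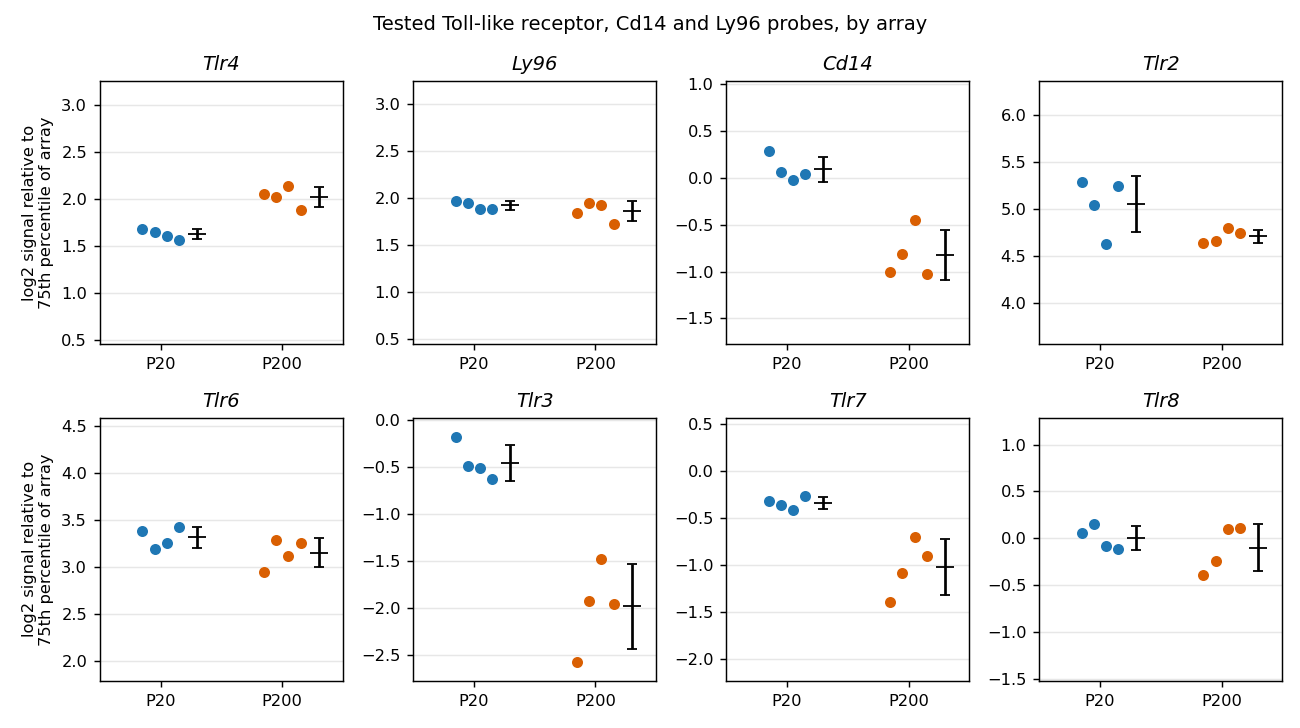
Level of each tested gene on each array (points, replicates 1 to 4 from left to right) at P20 (blue) and P200 (orange), as log2 signal relative to the 75th percentile of the array, with the mean and SD of 4 arrays beside them. Every panel spans the same number of log2 units. The groups do not overlap for Tlr4, Cd14, Tlr3 and Tlr7, and they overlap for Ly96, Tlr2, Tlr6 and Tlr8.

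Tlr4 encodes the signalling receptor for lipopolysaccharide of Gram-negative bacteria. Its probe lies on chromosome 5 at 83577410 to 83577469 of rn4. The P20 arrays read 1.68, 1.66, 1.60 and 1.57, and the P200 arrays 2.05, 2.02, 2.14 and 1.89. The lowest P200 array was above the highest P20 array. The mean went from 1.63 ± 0.05 (SD, n = 4) to 2.03 ± 0.11 (SD, n = 4), a log2 change of 0.40 ± 0.07 (SE), with a limma Benjamini-Hochberg adjusted p of 0.00665 and a 95% interval of the change from 0.24 to 0.56. The call was lost under 4 of 21 other settings. These were scaling to the array median (0.36, adjusted p = 1 by limma), normexp background correction (0.31, adjusted p = 0.0649 by limma), no filter on dim probes (0.40, adjusted p = 0.0842 by limma) and the deposited spot medians (0.31, adjusted p = 0.0651 by limma).

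MD-2, the product of Ly96, holds the lipid part of lipopolysaccharide against the TLR4 ectodomain. Its probe at base 428 read 1.96, 1.95, 1.88 and 1.88 at P20 and 1.84, 1.95, 1.92 and 1.72 at P200. P200 replicates 2 and 3 lay inside the range of P20, so the groups overlapped. The log2 change was -0.06 ± 0.07 (SE; limma adjusted p = 0.663), with a 95% interval from -0.21 to 0.09. The sister probe at base 427 read 1.79, 1.77, 1.66 and 1.56 at P20 and 1.84, 1.66, 1.74 and 1.59 at P200, a change of 0.01 with the groups interleaved.

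CD14 is the lipid-anchored surface protein that hands lipopolysaccharide to TLR4 and MD-2 and also serves TLR2. Its probe lies on chromosome 18 at 29374990 to 29375049 of rn4. Cd14 read 0.28, 0.06, -0.02 and 0.03 at P20 and -1.002, -0.81, -0.45 and -1.03 at P200. Every P200 array was below every P20 array, and P200 replicate 3 was the nearest to them. The mean went from 0.09 ± 0.13 to -0.82 ± 0.27 (SD, n = 4 each), a log2 change of -0.91 ± 0.13 (SE; limma adjusted p = 0.00258) with a 95% interval from -1.22 to -0.60. Cd14 kept its call under all 21 other settings, with adjusted p from 0.000514 to 0.023. Of the lipopolysaccharide receptor's 3 components on the array, 1 was thus higher, 1 was lower and 1 did not pass the test.

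TLR2 recognises bacterial lipopeptides and lipoteichoic acid as a heterodimer. The probe of Tlr2, on chromosome 2 at 175608160 to 175608217 of rn4, read 5.29, 5.04, 4.63 and 5.25 at P20 and 4.64, 4.66, 4.79 and 4.74 at P200. At P20 3 arrays lay above all 4 P200 arrays, and P20 replicate 3 lay below all of them. The SD was 0.30 at P20 and 0.07 at P200. The log2 change was -0.35 ± 0.14 (SE), with an unadjusted limma p of 0.0359, an adjusted p of 0.17 and a 95% interval from -0.66 to -0.03. Without P20 replicate 3 the change was -0.49 and passed the test (limma adjusted p = 0.0126), so that 1 array decided this call.

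TLR6 pairs with TLR2 for diacylated lipopeptides. Tlr6 has 3 probes on chromosome 14, and the brightest, at 46100547 to 46100606 of rn4, read 3.38, 3.19, 3.25 and 3.42 at P20 and 2.95, 3.28, 3.11 and 3.25 at P200. Only P200 replicates 1 and 3 fell below the range of P20. The log2 change was -0.16 ± 0.09 (SE; limma adjusted p = 0.344, 95% interval from -0.37 to 0.05).

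The probe of Tlr6 at 46100630 to 46100687 read 2.16, 1.84, 1.95 and 2.16 at P20 and 1.71, 1.95, 1.91 and 1.86 at P200, a change of -0.17. The one at 46101635 to 46101694 read 0.77, 0.87, 0.71 and 0.69 at P20 and 0.20, 0.62, 0.63 and 0.64 at P200, a change of -0.24. On this last probe every P200 array was below every P20 array, yet it did not pass the test when each probe was tested singly (limma adjusted p = 0.24). The 3 probes thus gave changes of one sign and similar size, and none passed.

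TLR5, the receptor for bacterial flagellin, was not measurable here. Its probe, on chromosome 13 at 99028987 to 99029046 of rn4, was not well above background on any of the 8 arrays, and its signal scattered from -5.64 to -3.24 at P20 and from -5.47 to -3.47 at P200. No level and no fold is given for it.

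Among the nucleic acid sensors, TLR3 binds double-stranded RNA and signals through TRIF alone. Its brighter probe lies on chromosome 16 at 50126271 to 50126330 of rn4. It read -0.18, -0.49, -0.51 and -0.63 at P20 and -2.57, -1.92, -1.47 and -1.95 at P200. Every P200 array lay below every P20 array, and P200 replicate 1 was the lowest. The mean went from -0.45 ± 0.19 to -1.98 ± 0.45 (SD, n = 4 each), a log2 change of -1.53 ± 0.21 (SE; limma adjusted p = 0.00179), the largest change among the 8 tested members. Its 95% interval ran from -2.01 to -1.05. Tlr3 kept its call under all 21 other settings, but normexp background correction gave a smaller change, -0.93 (limma adjusted p = 0.00112).

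The dimmer Tlr3 probe, at 50127005 to 50127064, read -0.95, -1.19, -1.27 and -0.89 at P20. It read -4.32, -2.37, -2.14 and -2.67 at P200, where replicate 1 was not well above background. The difference of means was -1.80 over all 4 P200 arrays and -1.32 over the 3 that were above background. All P200 arrays again lay below all P20 arrays. This probe entered the tests through P20 alone, where it is bright, so its values are given as a description. The setting that averaged the probes of a gene included it, so the Tlr3 call there (-1.66, limma adjusted p = 0.00838) rests partly on it.

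TLR7 senses single-stranded RNA in endosomes. Its brighter probe, the one whose letters are given above, read -0.32, -0.35, -0.41 and -0.27 at P20 and -1.39, -1.08, -0.70 and -0.90 at P200. The groups did not overlap, and the P200 arrays were more spread, with an SD of 0.29 against 0.06. The log2 change was -0.68 ± 0.14 (SE; limma adjusted p = 0.0124, 95% interval from -0.99 to -0.37).

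The dimmer Tlr7 probe, on the X chromosome at 47357574 to 47357633, was above background on 4 P20 arrays and on 2 of 4 P200 arrays. It read -3.63, -2.63, -2.33 and -2.60 at P20 and -3.24, -3.69, -3.50 and -2.16 at P200. The groups overlapped, with P200 replicate 4 above all P20 arrays, and its change of -0.35 ± 0.37 (SE) did not pass (limma adjusted p = 0.651). This probe, too, entered the tests through P20 alone, and P200 replicates 2 and 3 were not above background on it. The mean of both probes gave -0.51 for Tlr7 and no call (limma adjusted p = 0.165). The call for Tlr7 was also lost with scaling to the array median (-0.72, adjusted p = 0.128 by limma) and with no filter on dim probes (-0.68, adjusted p = 0.0848 by limma).

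Tlr8, the chromosomal neighbour of Tlr7, encodes another receptor of the endosomal group, and its probe has no position on rn4 in the files. It read 0.06, 0.15, -0.08 and -0.11 at P20 and -0.38, -0.23, 0.11 and 0.11 at P200. At P200, replicates 1 and 2 lay below the P20 arrays and replicates 3 and 4 inside their range. The log2 change of Tlr8 was -0.11 ± 0.13 (SE; limma adjusted p = 0.685), with a 95% interval from -0.39 to 0.18. Whether Tlr7 and Tlr8 differed in their change was not tested.

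TLR9, the sensor of unmethylated CpG DNA, was well above background on 1 array of each group, replicate 2 in both. Its probe read -4.09, -3.47, -3.44 and -5.17 at P20 and -4.04, -3.09, -4.19 and -3.40 at P200. The groups overlapped, and no test was made.

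**Figure D2:**
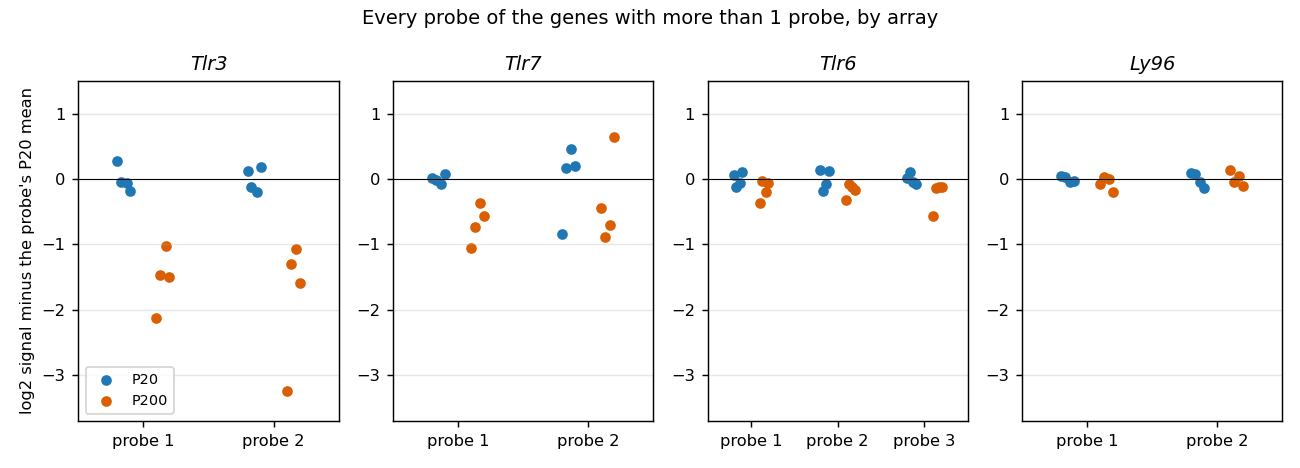
Signal of every probe of the 4 genes with more than 1 probe, as log2 signal minus the mean of the P20 arrays of that probe, on each P20 (blue) and P200 (orange) array. Both Tlr3 probes sit below 0 on all 4 P200 arrays, the second Tlr7 probe has P200 arrays on both sides of 0, and the Ly96 probes stay near it.

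Library by library, P200 replicate 1 was the lowest P200 array for 5 of the 8 tested members, namely Tlr2, Tlr3, Tlr6, Tlr7 and Tlr8, and P200 replicate 4 for Tlr4, Cd14 and Ly96. Without P200 replicate 1, the log2 changes were -1.33 for Tlr3 (limma adjusted p = 0.00108), -0.85 for Cd14 (0.00818), -0.55 for Tlr7 (0.01) and 0.39 for Tlr4 (0.0187), so the 4 calls did not rest on it.

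The arrays stood in 2 rows of the slide, and row and passage were unevenly mixed, with 1 P20 and 3 P200 arrays in row 1 and 3 P20 and 1 P200 array in row 2. Within row 1, the differences between P200 and P20 means were -1.60 for Tlr3, -1.04 for Cd14, -0.57 for Tlr7 and 0.33 for Tlr4. Within row 2, they were -2.03, -1.02, -1.05 and 0.44 in the same order. The P200 array in row 2 was replicate 1, the lowest P200 array for Tlr3 and Tlr7, so row and that array cannot be told apart at P200. Each difference had the same sign in both rows, which was fixed in advance because the P20 and P200 arrays of these genes did not overlap. With the row as a block, all 4 passed the limma test, at -1.82 (adjusted p = 0.000281), -1.03 (adjusted p = 0.0034), -0.81 (adjusted p = 0.0101) and 0.39 (adjusted p = 0.0318).

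Some markers of other cell types also differed between the passages. Camp, an antimicrobial peptide of granulocytes, was the one marker of the granulocyte and mast cell list above background on all 8 arrays, and it fell by 1.13 (limma adjusted p = 5.16e-05). The summed level of that list, nearly all of it Camp, ran from 7.48 to 8.58 at P20 and from 3.28 to 4.24 at P200. Mpo and Elane were above background on no array and Cpa3 on P200 replicate 4 alone, so the sum says little beyond Camp. Clec9a of dendritic cells fell by 0.88 (limma adjusted p = 0.00248), or by 0.46 with normexp and 0.54 with the deposited spot medians. The sums of the dendritic cell list, most of them Clec9a itself, were 0.46 to 0.51 at P20 and 0.26 to 0.35 at P200. Flt3 and Xcr1 were above background on no array. Of the 7 macrophage markers tested 1 passed, beside 11.5% of all genes called in either direction. It was Siglec5, which fell by 1.69 (limma adjusted p = 1.85e-05). The brightest of 3 Lyz2 probes did not pass (-0.21, limma adjusted p = 0.199), while another did when probes were tested singly (-0.39, limma adjusted p = 0.00693). The remaining Lyz2 probe had a change of 0.06 with the groups overlapping (limma adjusted p = 0.832 over single probes). The part of these differences in the lower Tlr3, Cd14 and Tlr7 was not tested.

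Around the receptors, 64 further genes of Toll-like receptor biology were listed, of which 62 were on the array and 51 could be tested. Of these, 8 were lower and 1 higher at P200 and 42 did not pass, beside the shares of all genes given above. Their median log2 change was -0.10. Among 5 other Toll-like receptors only Tlr13, a rodent sensor of bacterial ribosomal RNA, was tested. Its brighter probe had a change of 0.16 ± 0.08 (SE; limma adjusted p = 0.291), and its other probe, on which all P200 arrays were above all P20 arrays, had 0.40 ± 0.10 (limma adjusted p = 0.0336 over single probes, of which 5.55% were called higher). Tlr1, Tlr10, Tlr11 and Tlr12 were above background on no array, and in RefSeq Tlr10 and Tlr1 are the next protein-coding genes to Tlr6 on chromosome 14.

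**Figure D3:**
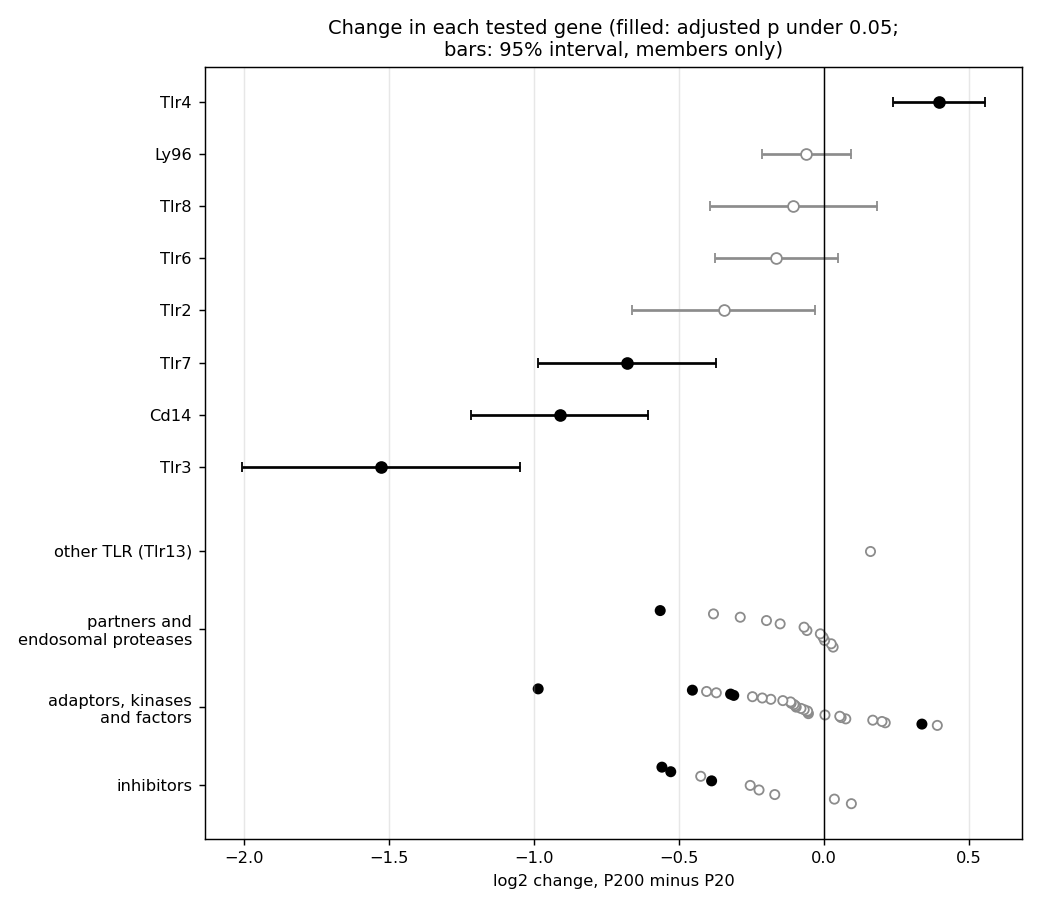
Log2 change from P20 to P200 of the 8 tested members, with 95% intervals, and of the 51 tested genes of the other lists, 1 point per gene. Filled points passed the test at an adjusted p under 0.05. Tlr3, Cd14 and Tlr7 lie left of 0 and Tlr4 right of it, and the 9 filled points of the other lists lie left of 0 except Tab3.

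Of 16 receptor partners, chaperones and endosomal proteases, 12 were tested, with a median change of -0.06. Of these 1 passed, Ctsh, beside 5.53% of all genes called lower and 5.99% called higher. Ctsh, a lysosomal cysteine protease, fell by 0.56 (SE 0.09, limma adjusted p = 0.00416) and lost its call with scaling to the array median (limma adjusted p = 0.358). Unc93b1, which carries the nucleic acid sensors from the endoplasmic reticulum to endosomes, had a change of 0.03 and did not pass (limma adjusted p = 0.876), nor did the folding chaperones Cnpy3 (0.03, adjusted p = 0.847) and Hsp90b1 (-0.20, adjusted p = 0.346). Cd36, a scavenger receptor that presents lipids to TLR2 and TLR6, had a change of -0.38 on its brighter probe (limma adjusted p = 0.106) and -0.81 on its other one (limma adjusted p = 0.000109 over single probes, of which 5.22% were called lower), so the probes disagreed on the call. Cd36 was singled out after its values were seen. Lbp, the serum carrier of lipopolysaccharide, and Cd180 were above background on no array.

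Of 31 adaptors, kinases and transcription factors, 29 were tested, and 4 fell and 1 rose, beside 5.53% and 5.99% of all genes, with a median change of -0.10. Irf7, the interferon regulatory factor that TLR7 and TLR9 act on, fell by 0.99 (SE 0.19, limma adjusted p = 0.0117), or 1.98-fold. Irak2, a kinase of the MyD88 complex, fell by 0.45 (SE 0.06, limma adjusted p = 0.0015). The kinase Ikbke (-0.32, limma adjusted p = 0.0263) and the NF-kappaB subunit Nfkb1 (-0.31, limma adjusted p = 0.0163) were the other genes called lower, and each lost its call under 7 of 21 other settings. Both did so with the array median, with no filter on dim probes, and with the replicate number or the slide row as a block. For Nfkb1 the mean of its probes lost the call too (-0.28, limma adjusted p = 0.0605). The dimmer Nfkb1 probe had a change of -0.24 with the groups overlapping (limma adjusted p = 0.236 over single probes). Irak2 lost its call with the array median (limma adjusted p = 0.737) and Irf7 with no filter on dim probes (limma adjusted p = 0.0715). Tab3, a subunit of the TAK1 kinase complex, rose by 0.34 (SE 0.09, limma adjusted p = 0.0372), but its call was lost under 12 of 21 other settings.

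The adaptors themselves did not pass. Myd88, the adaptor of nearly all these receptors, had a change of 0.00 ± 0.06 (SE; limma adjusted p = 0.979). Ticam1, which encodes TRIF, had 0.06 ± 0.11 (limma adjusted p = 0.809) and Ticam2 -0.08 ± 0.09 (limma adjusted p = 0.673). Tirap, which bridges TLR2 and TLR4 to MyD88, had -0.37 ± 0.10 and missed the threshold narrowly (limma adjusted p = 0.0523).

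Of 12 inhibitors, 9 were tested, and 3 fell while 0 rose, beside 5.53% and 5.99% of all genes, with a median change of -0.25. That median is the value of Il1rl1 (SE 0.49), a dim gene above background on 4 P20 arrays and 3 P200 arrays. It entered the tests through P20 alone, so the median is given as a description. An unadjusted limma p under 0.05 was reached by 5 of the 9 and by 23.8% of all genes. Tnfaip3, the ubiquitin-editing enzyme A20, fell by 0.56 (SE 0.10, limma adjusted p = 0.00728). Nfkbia, the inhibitor that holds NF-kappaB in the cytoplasm, fell by 0.53 (SE 0.08, limma adjusted p = 0.00312). Irak3, a pseudokinase that restrains the MyD88 complex, fell by 0.39 (SE 0.09, limma adjusted p = 0.0283), and its call was lost under 9 of 21 other settings. With the array median Tnfaip3 and Nfkbia lost theirs too (limma adjusted p = 0.376 and 0.468), as did Tnfaip3 with no filter on dim probes (limma adjusted p = 0.0641).

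**Figure D4:**
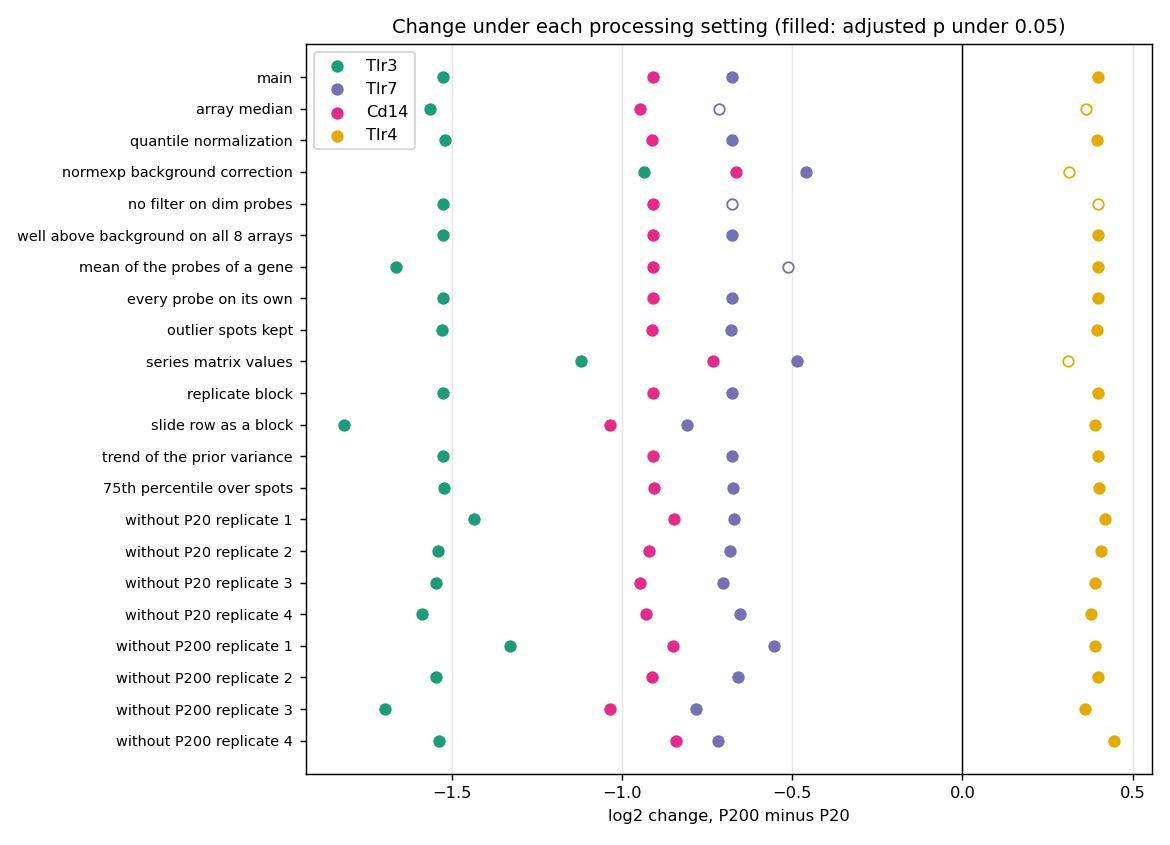
Log2 change of Tlr3, Tlr7, Cd14 and Tlr4 from P20 to P200 under the main processing (top) and 21 others, 1 line each. Filled points passed at an adjusted p under 0.05. Tlr3 and Cd14 are filled on every line, Tlr7 is open on 3 and Tlr4 on 4, and no point crosses 0.

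For each called member, the genes with the most similar course over the 8 arrays were sought among 10221 named genes above background on all of them, by the root mean square difference of log2 profiles centred on their means. Nearest to Cd14 was Cp, the copper-carrying ferroxidase ceruloplasmin, at 0.05 log2 units with a change of its own of -0.97, followed by Tnfsf8 at 0.15. Nearest to Tlr3 were Arhgap6 at 0.18 and the paraoxonase Pon3 at 0.19, whose own changes were -1.45 and -1.35. Nearest to Tlr4 were MGC112715 at 0.03 and Epdr1 at 0.04, and nearest to Tlr7 were Tm4sf19 at 0.08 and the chemokine Ccl9 at 0.10. These lists rest on 8 arrays and on the size of the change between the groups, and they describe likeness only.

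The promoters of 9 members are in the RefSeq table for GRCr8, and 5 short motifs were searched on both strands of the 250 bases upstream of the annotated start. GAGGAA, the core bound by the macrophage factor PU.1, stood in 7 of 9 member promoters and in 23.3% of all 33469 promoters of that length. The 2 without it were Tlr2 and Tlr5. GAAANNGAA, an element of interferon regulatory factors, was in 1 of 9 (Tlr8) and in 8.12% of all promoters. The NF-kappaB consensus was in 1 (Tlr2) and in 6.33% of all, TGANTCA, an AP-1 site, in 1 (Tlr9) and in 6.34% of all, and the TATA box TATAAA in 1 (Tlr8) and in 12.9% of all. Matches of different motifs did not overlap. Spi1, which encodes PU.1, was above background on all 8 arrays, with a change of -0.05 ± 0.08 (SE; limma adjusted p = 0.76). The upstream sequences of 3 members called at P200 follow, with matches to GAGGAA or its reverse complement in capitals. They lie on the plus strand of GRCr8 at chr16:53554666-53554915 for Tlr3, chrX:30644176-30644425 for Tlr7 and chr5:85160997-85161246 for Tlr4.
Tlr3: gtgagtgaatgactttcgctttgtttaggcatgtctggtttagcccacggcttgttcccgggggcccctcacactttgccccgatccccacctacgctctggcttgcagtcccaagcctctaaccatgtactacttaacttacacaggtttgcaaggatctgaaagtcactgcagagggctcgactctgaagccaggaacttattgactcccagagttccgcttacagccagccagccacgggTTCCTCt
Tlr7: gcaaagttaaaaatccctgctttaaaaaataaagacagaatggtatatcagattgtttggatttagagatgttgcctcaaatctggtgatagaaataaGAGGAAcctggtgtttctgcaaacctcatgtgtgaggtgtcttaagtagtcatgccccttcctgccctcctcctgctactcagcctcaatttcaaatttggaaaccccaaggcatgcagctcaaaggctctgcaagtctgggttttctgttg
Tlr4: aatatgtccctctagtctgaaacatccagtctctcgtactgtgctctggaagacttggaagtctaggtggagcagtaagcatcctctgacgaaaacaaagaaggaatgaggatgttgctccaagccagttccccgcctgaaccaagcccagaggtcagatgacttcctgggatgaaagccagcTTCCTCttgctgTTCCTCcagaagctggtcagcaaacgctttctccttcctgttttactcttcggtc

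The match begins 7 bases upstream of the start in Tlr3, 152 in Tlr7, and 67 and 55 in Tlr4. In Cd14, whose sequence is not shown, matches begin 140 and 105 bases upstream. GAGGAA was thus present both in members called lower and in the one called higher, and its part in the changes was not tested. A match is a run of letters and not a measured binding site.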

How the data were processed

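The deposited scanner files hold linear spot intensity values that the authors read with Agilent Feature Extraction 11.0.1.1, per the file headers and submitters' processing notes, background subtracted within each array and with no scaling between arrays. Control and outlier spots were left out, the spots of a probe were averaged as log2 values computed here from the deposited intensity, and levels were taken relative to the array's 75th percentile. A probe was tested if well above background on all 4 arrays of at least 1 group (19458 probes), and a gene was its probe with the highest mean signal (15651 genes). P200 and P20 were compared with limma 3.58.1 in R 4.3.3 (lmFit, eBayes, no covariate, two-sided, Benjamini-Hochberg over all genes, adjusted p under 0.05). The fit was tested on simulated data.

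Members and lists were chosen with earlier results of these data known. The text names all members with their probes, up to 3 called genes with the largest change per list or, with none, the one of smallest p, and the 2 genes most like each called member. Other genes were named as background or where called or read by disagreeing probes. Names came from the RefSeq table for GRCr8 where it matched, and probe positions are those of the scanner files on rn4. Replicate numbers are those of the scanner files. The deposited series matrix holds spot median intensity, equal to the scanner files, with the P200 columns numbered differently. Other settings were the scaling, background, filter, probe rule, outlier spots, value source, blocks, variance trend and left-out arrays, and a percentile over spots, added after the data were seen.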

Additional observations from a re-analysis of the deposited data

Results flagged for a closer look

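The third Tlr6 probe, the dimmest of that gene, read 0.20 on P200 replicate 1, while the nearest other P200 array read 0.62. The gap took up 0.966 of the range of the 4 P200 arrays, more than Dixon's test at the 95% level allows for 4 values. Chance alone marks about 1 in 20 such groups, and 30 groups, P20 and P200 for each of the 15 member probes, were examined. The brighter Tlr6 probes also had their lowest P200 signal on replicate 1, at 2.95 and 1.71, without passing that limit.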

How the results depend on the processing

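The number of arrays and the dim signals of Tlr3, Tlr7 and the markers near background limit these results. Other settings were run for 21 genes, the 8 tested members, Tlr13 and the 12 called pathway and marker genes, and over 21 settings 0 of their changes reversed. Settings that altered only the filter, the variance trend or the replicate block, or tested probes singly, left these changes as they were. Such settings could alter a call but could not reverse a change. The changes ran from -1.82 to -0.93 for Tlr3 and from -1.03 to -0.66 for Cd14, both called in all 21. They ran from -0.81 to -0.46 for Tlr7 (limma adjusted p from 0.00586 to 0.165) and from 0.31 to 0.44 for Tlr4 (0.00271 to 1). Scaling to the array median gave 286 genes higher and 367 lower, 0 members higher, and 0 pathway genes higher and 1 lower. With no filter on dim probes, 389 genes were higher and 423 lower among 36121, members higher numbered 0, and pathway genes 0 higher and 3 lower. Members higher were 0 with normexp and with the deposited spot medians, and pathway genes higher were 0 with those medians and with the slide row as a block. Leaving out 1 array gave 0 to 1 pathway genes higher. Tab3 lost its call without each P20 array or P200 replicate 1, 2 or 3 in turn, and Irak3 without P20 replicate 1, 3 or 4 or P200 replicate 1 or 4. Ikbke lost its call without P20 replicate 1, 3 or 4, and Nfkb1 without P20 replicate 2 or P200 replicate 3. P200 and P20 replicates share numbers, whose deviations correlated at 0.02, 0.13, -0.0034 and 0.28, and at 0.22, 0.07, 0.10 and -0.11 with the P200 numbers of the series matrix, so neither numbering was taken to pair the samples. With the replicate block, on the scanner numbers, pathway genes were 0 higher and 5 lower, and members 1 and 3. The cause of these differences was not tested.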
